A study of Danio rerio with 6 samples.

Results

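The 59 genes described here encode ATP-driven ion and lipid pumps and the carbonic anhydrases that work beside them. They are the rows of a deposited count table whose gene name begins as a sodium, calcium, proton, copper, polyamine or lipid pump name does (atp1, atp2, atp4, atp6 to atp9, atp10 to atp19, each followed by a letter), or is ca with a number and at most 1 letter, in any letter case. They are 59 of the 10022 rows of that table, which the authors had filtered, and the rule picks them by name and uses no measured value. They fall into 12 Na,K-ATPase chains, 10 Ca-ATPases, 15 V-ATPase subunits, 13 lipid flippases, 6 carbonic anhydrases and 3 other pumps of the P type.

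The zebrafish embryos were 48 hours old, counted from fertilization, and the distal tubule of their pronephros, the embryonic kidney, was cut out by laser capture. Of the 6 libraries, 3 came from embryos of genotype epcam hi2151/hi2151 (mutants), which carry the hi2151 allele on both chromosomes, and 3 from epcam+/+ embryos (controls). All 6 libraries carried both Tg(wt1b:GFP) and Tg(cdh17:GFP), 2 green fluorescent reporters. How many embryos went into a library was not given in the sources used here, so p-values measure the spread between these libraries, part of which may be technical.

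The Na,K-ATPase is a heterodimer of a catalytic alpha chain and a beta chain needed to bring it to the cell surface. It exports sodium and imports potassium across the basolateral membrane, and the gradient it makes drives sodium reabsorption by the transporters of the distal tubule. Ca-ATPases clear calcium from the cytosol into the endoplasmic reticulum (atp2a genes) or Golgi (atp2c1), or out of the cell (atp2b genes). The V-ATPase joins a cytosolic V1 sector, which splits ATP, to a membrane V0 sector, which carries the protons. It acidifies endosomes and lysosomes in all cells and secretes acid from ionocytes and from intercalated cells of the mammalian kidney. Carbonic anhydrases interconvert carbon dioxide and bicarbonate and so supply the protons. Flippases move phospholipids to the cytosolic leaflet of a membrane.

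Total counts, after the lowest value of each column was subtracted, ranged from 126861 to 250714 in the mutants and from 188022 to 746232 in the controls. Between 47 and 54 of the 59 genes had at least 1 count in a mutant library, and 47 or 48 in a control library. They held 1.16%, 0.508% and 0.944% of the counts of mutants 1 to 3, and 1.47%, 1.27% and 0.441% of those of controls 1 to 3. Transcripts of epcam were counted 0 times in each mutant and 10, 15 and 10 times in controls 1 to 3. By the library names, control 3 shared a sequencing project with all 3 mutants, while controls 1 and 2 belonged to another. Control 3 stood apart from the other controls in several of the results below, and several values are given with and without it. The floor was set at 3 counts, which is 17.4, 23.6 and 11.97 CPM (counts per 1000000 counts of the library) in mutants 1 to 3 and 5.43, 4.02 and 16.0 CPM in controls 1 to 3. The cDNA was amplified and no molecular identifiers are mentioned, so the intervals and this floor describe counting error alone. Marker sums in CPM of library total were 395, 552 and 1448 for leukocytes in mutants 1 to 3, against 72.4, 85.8 and 202 in controls 1 to 3, and 2288, 1277 and 1248 for liver, gut and yolk in mutants 1 to 3, against 10906, 13543 and 115513 in controls 1 to 3. Both lists had groups that did not overlap (exact permutation p = 0.1, the smallest that 3 against 3 libraries allow), and an erythrocyte list overlapped (exact permutation p = 0.7). The lists were chosen with earlier results of these data known, so these p-values are no independent tests. By edgeR fold changes without a filter on low counts, 7 of 8 leukocyte markers were higher in mutants and 1 (rac2) lower. One of them, csf1ra, had 200 counts in mutant 3. Of 24 liver, gut and yolk markers, 21 were lower in mutants and 3 (vtg2, vtg3 and apoea) higher. Of all rows, 52.7% were lower. The part of these cells in the pump values was not tested.

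**Figure D1:**
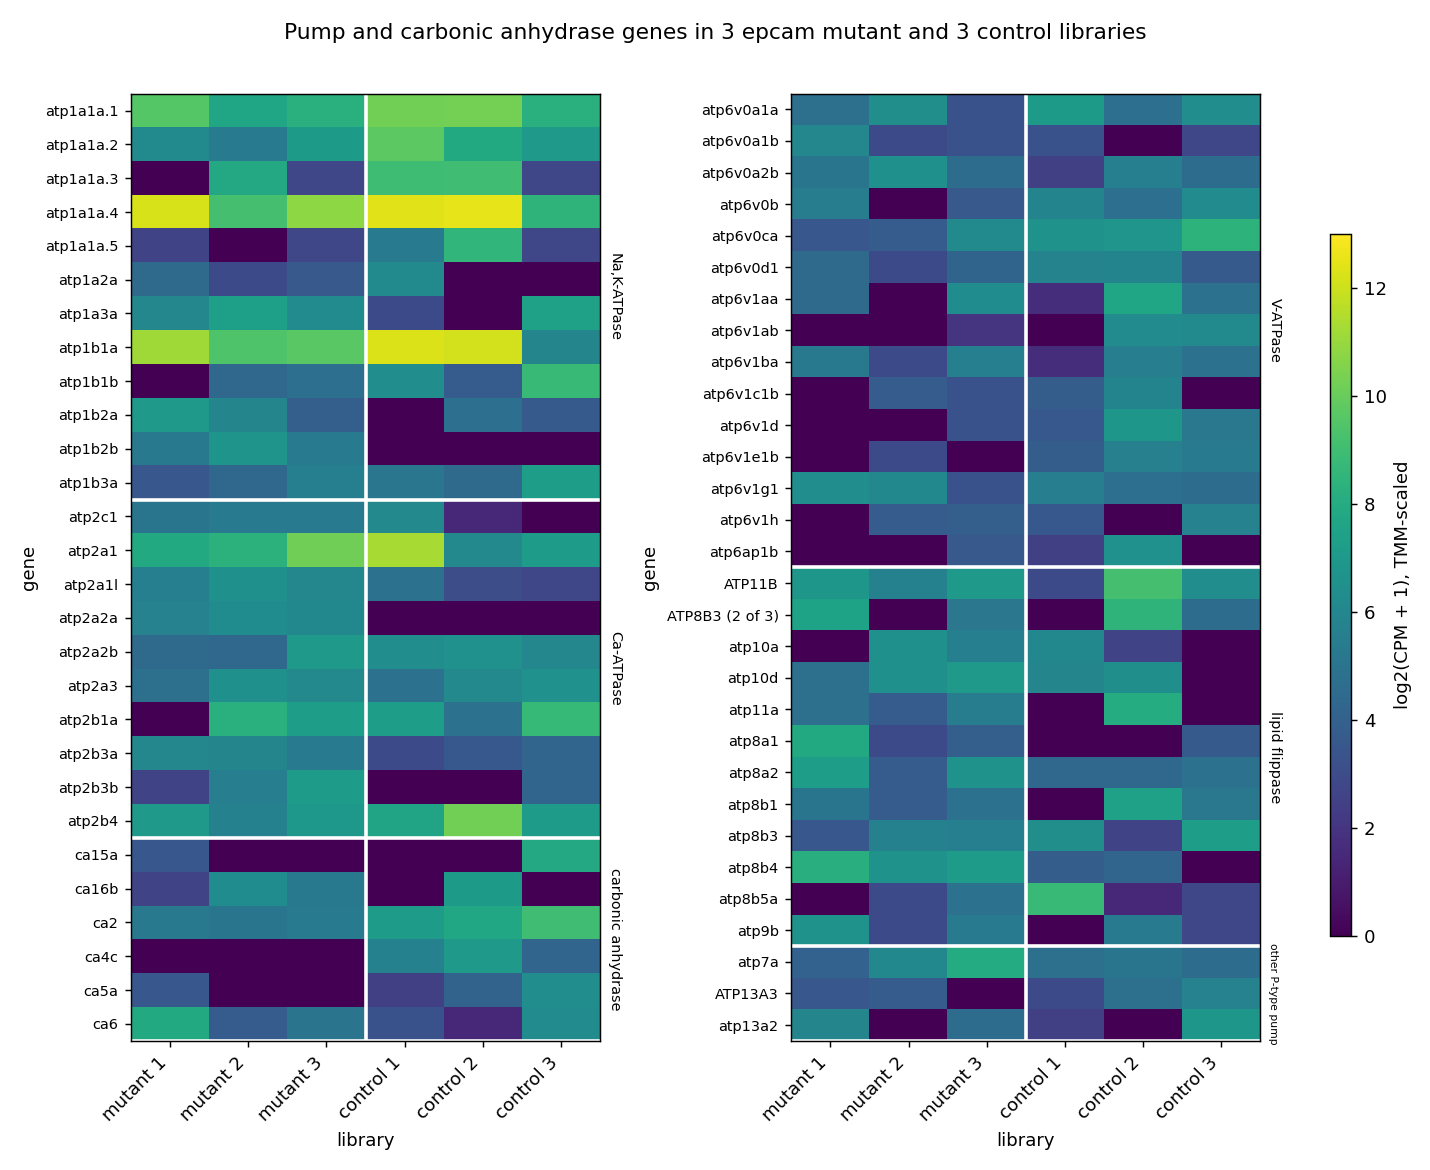
Level of 58 of the 59 genes (rows, grouped by pump class) in the 3 epcam mutant and 3 control libraries (columns), as log2(CPM + 1) after TMM scaling. The chains atp1a1a.4 and atp1b1a are bright in mutant 1 and controls 1 and 2 and dimmer in control 3, and 23 of the 59 genes had a count in all 6 libraries.

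The comparison of mutants with controls asks how loss of epcam goes with transcript levels in the tubule. None of the 59 genes passed the threshold with edgeR. A filter on low counts, which asks for enough counts in at least 3 libraries, kept 26 of the 59 genes and 3869 of all rows. By the quasi-likelihood test of edgeR, after Benjamini-Hochberg adjustment, 0 of the 26 genes and 0 of the 3869 rows (0%) had an adjusted p under 0.05. At an unadjusted p under 0.05, 2 of the 26 were higher in mutants (8.5% of all tested rows were) and 1 was lower (4.96%). These were atp2a2a and atp8b4, higher, and ca2, lower. Both atp2a2a and atp8b4 passed the filter through the mutants alone, the group in which they were high. DESeq2 called 2 of the 59, atp2a2a and atp1b2b, both higher, and 0 lower. Of all 10022 rows it called 293 higher and 56 lower. These are 3.68% and 0.703% of the 7961 rows with a DESeq2 adjusted p. Some of the 59 genes, such as atp2a1, had no such adjusted p. The authors' deposited table of 379 rows, which is 3.78% of the 10022, lists the same 2 genes, with an FDR of 0.0289 for atp2a2a and 0.0329 for atp1b2b, and gives no fold change.

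All 3 mutants lay above all 3 controls for 5 of the 59 genes (8.47%), and this was so for 11.2% of all rows. All 3 mutants lay below all 3 controls for 7 of the 59 (11.9%), against 6.08% of all rows. The 5 genes were atp1b2b, atp2a1l, atp2a2a, atp2b3a and atp8b4. The 7 genes were atp1a1a.5, atp2b4, atp6v0ca, atp6v1d, atp6v1e1b, ca2 and ca4c. For atp1a1a.5 this order rests on 2 counts in mutant 3 (5.72 CPM) against 1 count in control 3 (5.88 CPM), both under the floor. In the fit without a filter, 20 of the 59 had a positive and 39 a negative log2 fold change (mutant over control), with a median of -0.94 against -0.17 over all rows. Without control 3 these counts were 26 and 33, with a median of -0.75 against 0.28. Within the sequencing project of control 3 they were 34 and 25, with a median of 0.36 against 1.14 over all rows, so the side on which most of the genes fell depends on the controls used.

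**Figure D2:**
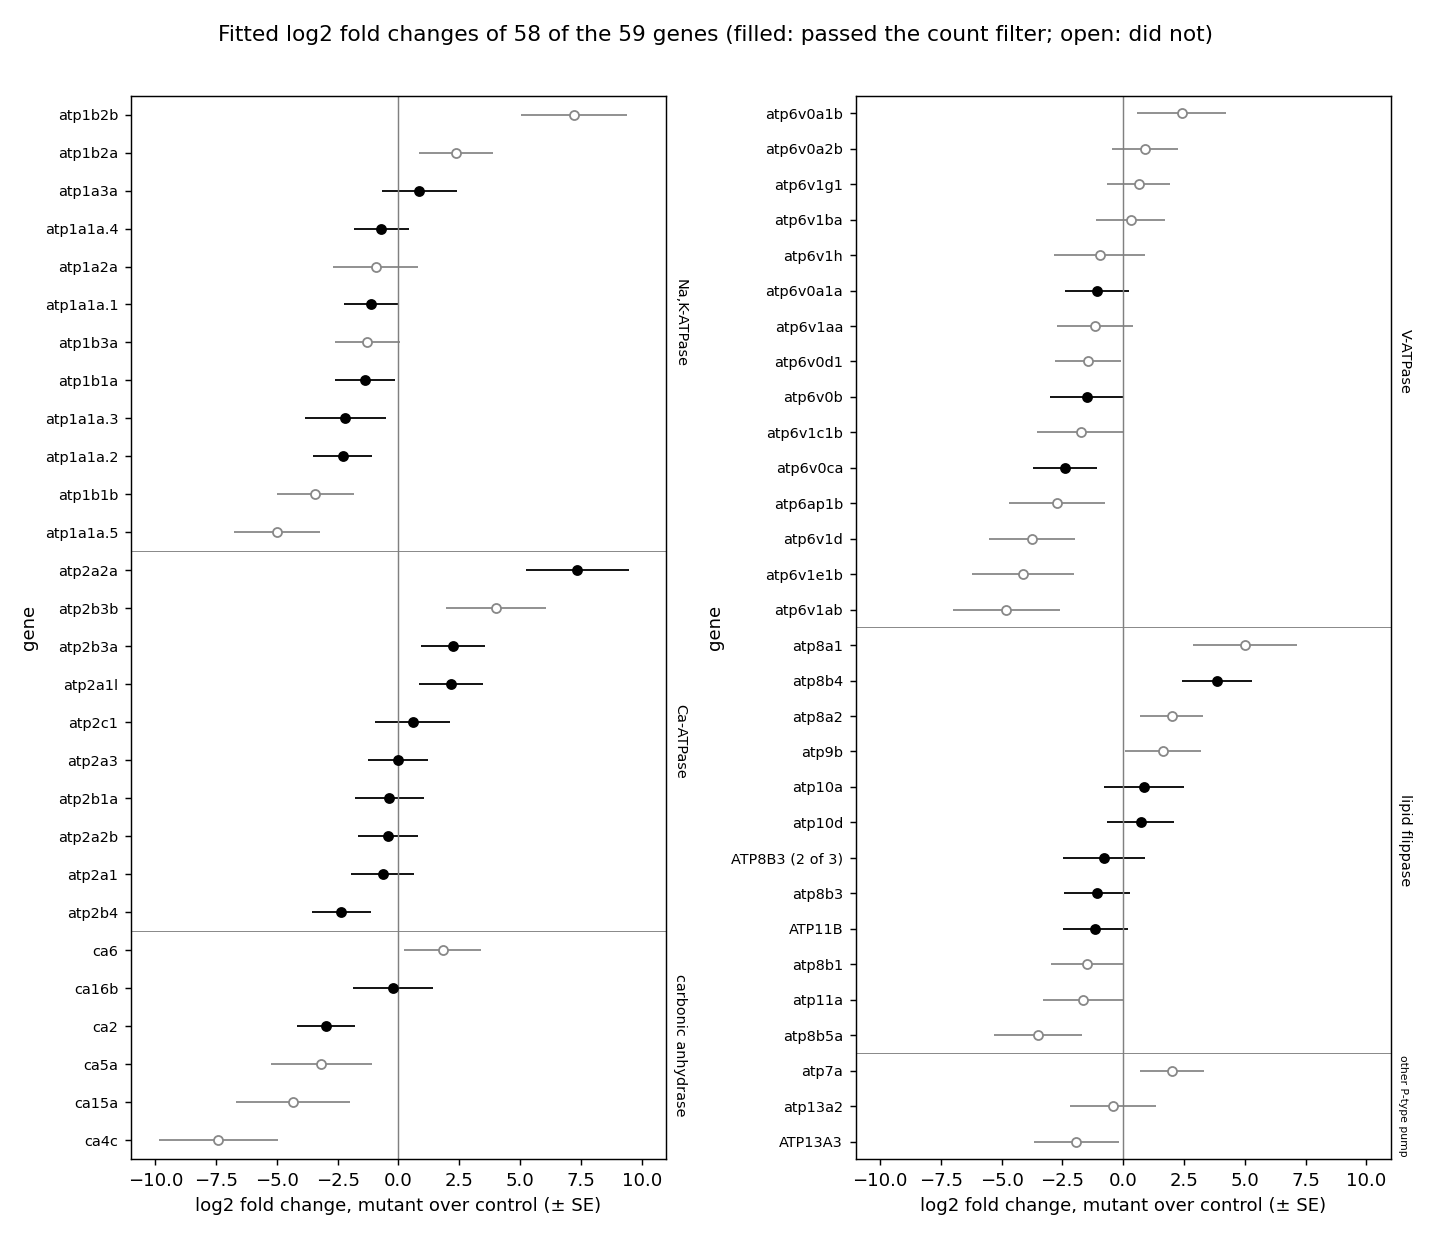
Log2 fold change (mutant over control, horizontal axis) of 58 of the 59 genes with its standard error, from the edgeR fit without a filter. Filled points passed the filter on low counts (26 genes) and open points did not. The points of ca4c, atp2a2a and atp1b2b, which rest on a group with no count, depend on the fit's prior count and are no measure of size.

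Among the sodium pump alpha chains, the members with the most counts belong to 1 cluster of genes on chromosome 1 (GRCz10, plus strand). The chain atp1a1a.4 lies at chr1:1541981-1558365 and is known in zebrafish as a marker of the pronephric tubule. Its level, in TMM-scaled CPM as for every single gene below, was 4808, 578 and 1752 in mutants 1 to 3 and 5501, 5766 and 347 in controls 1 to 3. Mutant 1 was close to controls 1 and 2, control 3 was the lowest library of all, and the groups overlapped. The log2 fold change was -0.52 ± 1.13 (SE, n = 3 per group; edgeR adjusted p = 0.883), with a mean of 2380 ± 2183 CPM in mutants and 3871 ± 3055 CPM in controls (SD, n = 3). Against control 3 alone, within its sequencing project, it was 2.77, and without control 3 it was -1.24.

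The other chains of the cluster cannot be read independently of each other. The span given for atp1a1a.1 (chr1:1541972-1701828) contains those of atp1a1a.4, atp1a1a.2 (chr1:1564308-1667865) and atp1a1a.3 (chr1:1657500-1667866) whole and most of that of atp1a1a.5 (chr1:1690370-1702310), all on the same strand. How a read in the shared sequence was assigned was not given in the sources used here, and the copies are similar in sequence, so levels of these 5 genes are uncertain. The level of atp1a1a.1, which encodes the alpha chain of the embryonic zebrafish heart among other tissues, was 757, 208 and 303 CPM in mutants 1 to 3, against 1221, 1248 and 299.8 CPM in controls 1 to 3. Mutants 2 and 3 and control 3 were low, and the groups overlapped (log2 fold change -0.96 ± 0.98 SE, edgeR adjusted p = 0.707, and -1.54 without control 3). The chain atp1a1a.2 had 69.8, 39.0 and 134 CPM in mutants 1 to 3, against 846, 240.2 and 129 CPM in controls 1 to 3. Control 3 lay just under mutant 3, and the log2 fold change was -2.17 ± 1.05 (SE, edgeR adjusted p = 0.421), or -1.20 without control 1 and -2.74 without control 3. Counts of atp1a1a.5 were 1, 0 and 2 in mutants 1 to 3 and 18, 208 and 1 in controls 1 to 3, a pooled ratio of control over mutant of 44.5 (95% exact interval 15.04 to 217.5), with control 2 holding most of the counts (7.02 without it, interval 2.07 to 37.0). Counts of atp1a1a.3 were 0, 35 and 2 in mutants 1 to 3 and 226, 288 and 1 in controls 1 to 3.

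The remaining alpha chains are those of excitable tissue. The chain atp1a3a, the alpha 3 chain of neurons, had 64.4, 162 and 77.2 CPM in mutants 1 to 3, against 6.63, 0 and 170.5 CPM in controls 1 to 3. Its groups overlapped through control 3 alone, with a log2 fold change of 0.79 ± 1.61 (SE, edgeR adjusted p = 0.876) and 4.83 without control 3. Counts of atp1a2a, known in mammals from muscle and glia, were 4, 1 and 4 in mutants 1 to 3 and 33, 0 and 0 in controls 1 to 3, and it failed the filter.

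Of the beta chains, atp1b1a (chr6:29226831-29236926) had 2238, 695 and 812 CPM in mutants 1 to 3, against 5108, 4476 and 58.8 CPM in controls 1 to 3. Every mutant was below controls 1 and 2 and above control 3. The log2 fold change was -1.17 ± 1.24 (SE, n = 3 per group; edgeR adjusted p = 0.725), with 4.39 against control 3 alone, -1.93 without control 3 and -2.07 without mutant 1. Control 3 had 73 counts of the paralogue atp1b1b against 10 of atp1b1a, the only library in which atp1b1b had the more counts. Counts of atp1b1b were 0, 3 and 9 in mutants 1 to 3 and 37 and 7 in controls 1 and 2.

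The beta chain atp1b2b, whose mammalian counterpart is the beta 2 chain of glia and neurons, was counted in the mutants only. It had 7, 16 and 14 counts in mutants 1 to 3 and 0 in each control. Mutants averaged 60.5 ± 37.7 CPM (SD, n = 3) and were at least 6.11-fold higher than the controls, against a floor of 3 counts in each control library (3.92-fold without mutant 2). This bound uses the mean floor of the controls. Control 3 has the highest floor, so against control 3 alone the bound is lower. The chain atp1b2b failed the filter, and in the fit without one its edgeR adjusted p was 0.166, where DESeq2 gave 0.0413. On the values as deposited, with no lowest value subtracted, its log2 fold change was 1.26. Counts of its paralogue atp1b2a were 24, 9 and 5 in mutants 1 to 3 and 0, 14 and 2 in controls 1 to 3. Counts of atp1b3a were 2, 3 and 17 in mutants 1 to 3 and 15, 12 and 26 in controls 1 to 3.

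Summed over the 12 chains, and given in CPM of library total, the sodium pump stood at 8808, 2570 and 4507 in mutants 1 to 3, against 10993, 9348 and 1457 in controls 1 to 3. The group means were 5295 ± 3193 CPM in mutants and 7266 ± 5098 CPM in controls (SD, n = 3), with an exact permutation p of 0.8 (two-sided, like all those below). The mutants' mean was 0.521 times that of controls 1 and 2 and 3.63 times control 3. In bulk captures, fewer cells of a type and less RNA per cell cannot be told apart. Of 15 tubule genes found in the table, from a list of 18, control 3 was below both other controls for 9 and above both for 4 (gata3, epcam, esrrga and jag2b). The cadherin cdh17, whose promoter drives one of the reporters, had 1610, 162 and 312 CPM in mutants 1 to 3, against 3105, 2756 and 129 CPM in controls 1 to 3. The sodium chloride cotransporter slc12a3 of the distal tubule, which was not on that list, had 832, 58.5 and 260.2 CPM in mutants 1 to 3, against 1762, 2016 and 76.4 CPM in controls 1 to 3. By edgeR fold changes without a filter, 6 of the 15 listed genes were higher in mutants, among them jag2b (3.72) and tfap2b (2.95). The other 9, cdh17 among them, were lower, where 52.7% of all rows were lower. The summed level of the 15 genes came to 6398, 2286 and 2549 CPM of library total in mutants 1 to 3, and 4977, 4244 and 1500 CPM in controls 1 to 3 (exact permutation p = 1). The part of tubule content in the sodium pump values was not tested.

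**Figure D3:**
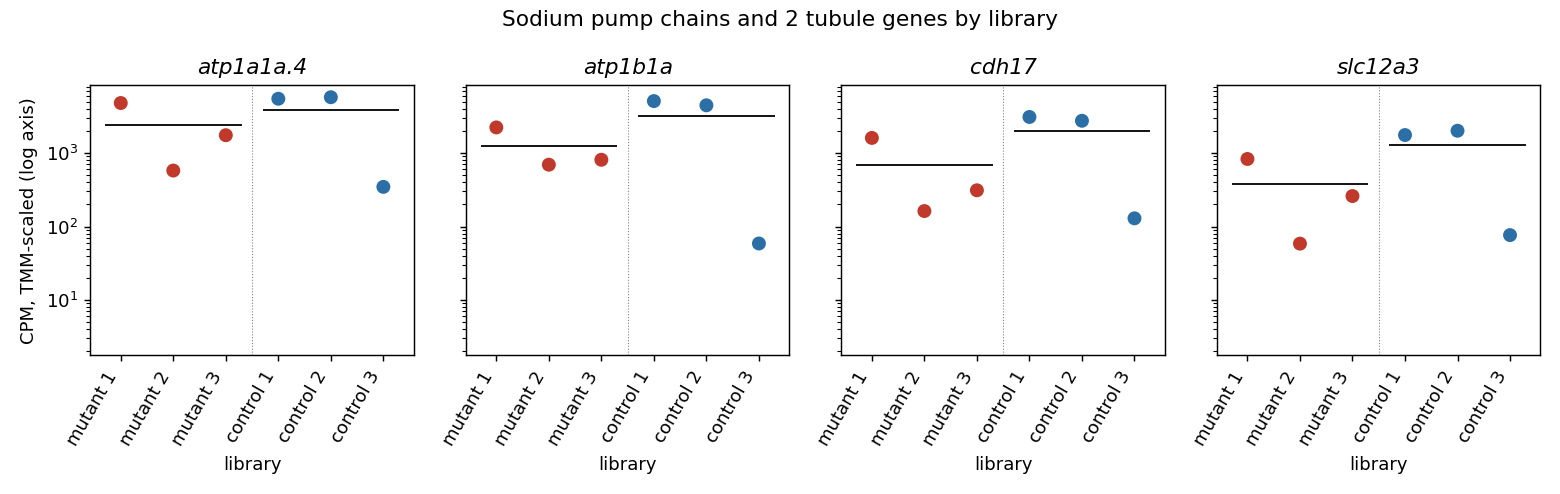
TMM-scaled CPM (vertical log axis) of the sodium pump chains atp1a1a.4 and atp1b1a and of the tubule genes cdh17 and slc12a3 in each library, with lines at the group means. Each of the 4 genes is lower in control 3 than in controls 1 and 2, and mutant 1 is the highest of the mutants.

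Of the 10 Ca-ATPases, 5 had a positive and 5 a negative log2 fold change, with a median of 0.28 against -0.17 over all rows. The endoplasmic reticulum pump atp2a2a (chr8:11649527-11707308), one of the zebrafish genes for SERCA2, the pump of heart muscle and many other cells, had the smallest p. It passed the filter through the mutants alone. It was counted 10, 12 and 23 times in mutants 1 to 3 and 0 times in each control. Mutants averaged 65.8 ± 12.2 CPM (SD, n = 3), at least 6.64-fold above the controls against the floor of 3 counts per control library, and at least 5.42-fold with any 1 library left out. This bound uses the mean floor of the controls. Control 3 has the highest floor, so against control 3 alone the bound is lower. The edgeR adjusted p was 0.106 and the DESeq2 adjusted p 0.0347. On the values as deposited, with no lowest value subtracted, the log2 fold change of atp2a2a was 1.38. Its paralogue atp2a2b had 21.5, 19.5 and 132 CPM in mutants 1 to 3, against 81.7, 92.8 and 64.7 CPM in controls 1 to 3, with only mutant 3 above the controls (log2 fold change -0.32 ± 1.08 SE, edgeR adjusted p = 0.927).

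The fast muscle pump atp2a1 had 241, 331 and 1169 CPM in mutants 1 to 3, against 2529, 67.3 and 147 CPM in controls 1 to 3. Control 1 and mutant 3 were the high libraries, and the groups overlapped (log2 fold change -0.51 ± 1.31 SE, edgeR adjusted p = 0.899, and 2.37 without control 1). Of a 30 gene list of muscle markers 20 were in the table, between 17 and 20 of them had a count in a mutant and between 14 and 19 in a control. In CPM of library total they summed to 4209, 6677 and 11950 in mutants 1 to 3 and 26737, 1384 and 1048 in controls 1 to 3, so the same 2 libraries were highest (exact permutation p = 0.5). Its part in the atp2a1 values was not tested. Counts of atp2a1l were 9, 14 and 22 in mutants 1 to 3 and 13, 4 and 1 in controls 1 to 3, where every mutant CPM was above every control (log2 fold change 2.36 ± 1.14 SE, edgeR adjusted p = 0.404). The gene atp2a1l passed the filter through the mutants alone. The span of atp2a1 overlaps that of a gene on the other strand by 1290 bases. The pump atp2a3 had 5, 14 and 24 counts in mutants 1 to 3 and 13, 38 and 16 in controls 1 to 3, with no order between the groups in CPM.

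Among the plasma membrane calcium pumps, atp2b4 had 123, 52.0 and 120.1 CPM in mutants 1 to 3, against 189.9, 1190 and 141 CPM in controls 1 to 3. All mutants were below all controls and control 2 was far above the rest. The log2 fold change was -2.14 ± 1.07 (SE, edgeR adjusted p = 0.433), and -0.83 without control 2. The ubiquitous pump atp2b1a had 0, 299 and 152 CPM in mutants 1 to 3, against 148, 29.1 and 417 CPM in controls 1 to 3, with no order between the groups (-0.35 ± 1.49 SE, edgeR adjusted p = 0.938). The gene atp2b3a, whose mammalian counterpart is mainly a brain pump, had 12, 9 and 14 counts in mutants 1 to 3 and 3, 6 and 3 in controls 1 to 3. Its CPM was higher in each mutant than in any control (2.32 ± 1.13 SE, edgeR adjusted p = 0.408), and it passed the filter through the mutants alone. Its paralogue atp2b3b had 1, 7 and 50 counts in mutants 1 to 3 and 0, 0 and 3 in controls 1 to 3, a pooled ratio of mutant over control of 32.9 (95% exact interval 10.7 to 163.9), or 9.19 (2.21 to 53.8) without mutant 3. The Golgi pump atp2c1 had 32.2 to 40.0 CPM in mutants and 0 to 68.5 CPM in controls.

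The summed level of neuronal markers did not overlap between the groups, though no single marker passed the adjusted threshold. Of a 31 gene list 14 were in the table, with 12 to 14 of them counted in each mutant and 6 to 8 in each control, and 3 (nova1, zic2a and slc17a6a) had no count in any control. In CPM of library total they summed to 7211, 1742 and 2078 in mutants 1 to 3 and 605, 179.6 and 154 in controls 1 to 3, and zic2b alone gave 1087 of the counts in mutant 1. In the fit without a filter 11 of the 14 had a positive and 3 a negative log2 fold change (gad2, inab and rbfox1, at -3.46, -2.95 and -0.80), where 52.7% of all rows had a negative one. Every mutant was above every control, with an exact permutation p of 0.1, the smallest possible. The list was chosen with earlier results of these data known, so this p is no independent test. The part of neuronal RNA in the values of atp1a3a, atp1b2b, atp2a2a, atp2b3a and atp2b3b was not tested. Summed over all 10 Ca-ATPases, mutants had 1596 ± 1079 CPM and controls 1475 ± 919 CPM of library total (SD, n = 3, exact permutation p = 0.9).

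**Figure D4:**
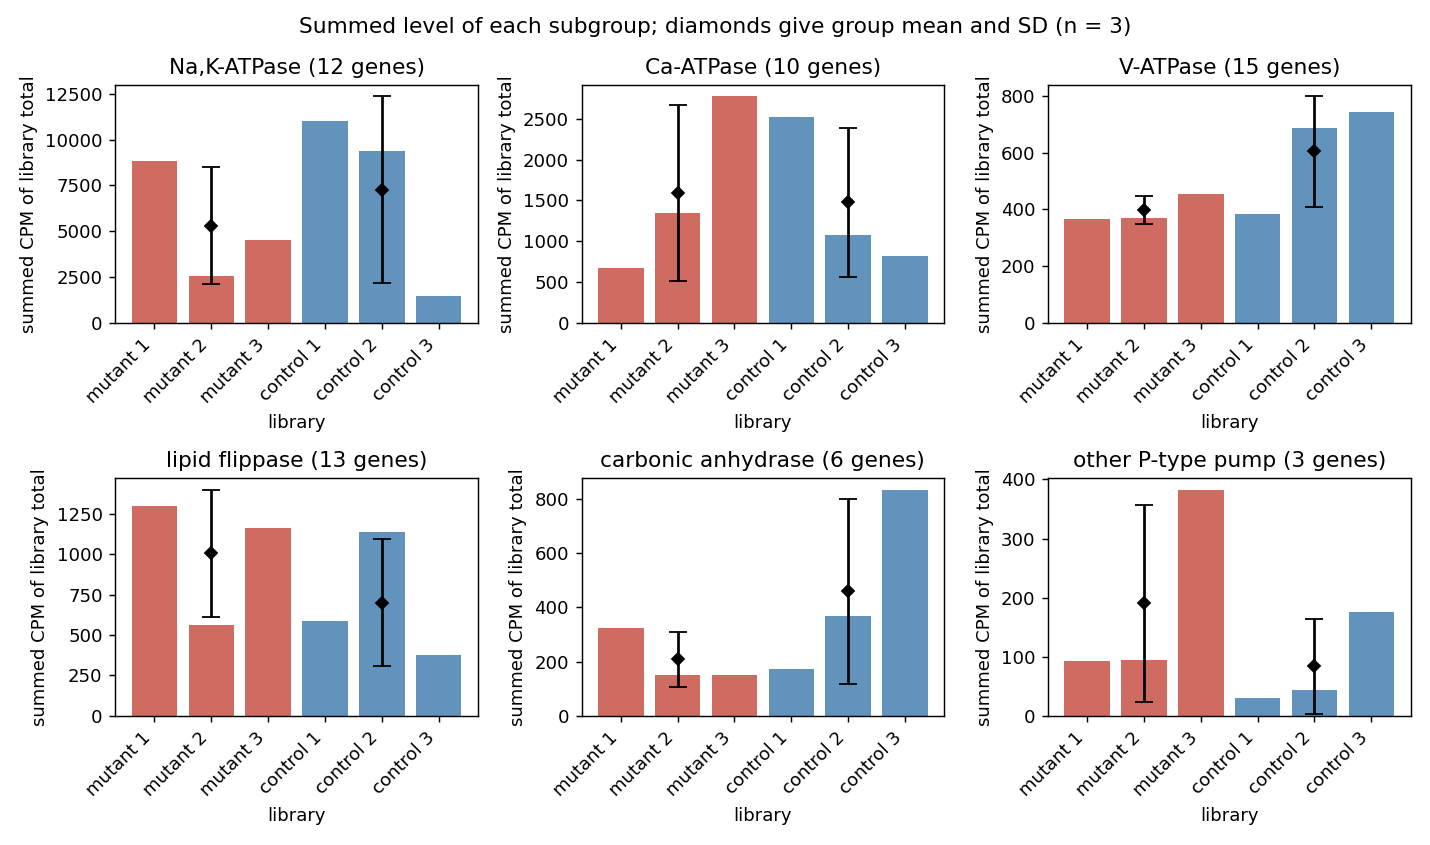
Summed level of each pump class in CPM of library total (bars, 1 per library, from 0), with the group mean and SD (diamonds, n = 3). The V-ATPase mutants lie between 366 and 455 CPM and the controls between 382 and 745 CPM, and the sodium pump is lowest in control 3.

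Of the 15 V-ATPase genes, 11 had a negative and 4 a positive log2 fold change, with a median of -1.44 against -0.17 over all rows, and 3 of them passed the filter. Without control 3 the counts were 10 negative and 5 positive, with a median of -1.53 against 0.28 over all rows. Within the project of control 3 they were 7 and 8, with a median of 0.096 against 1.14 over all rows. In that setting 36.1% of all rows were negative. In CPM of library total the 15 genes summed to 366, 370.5 and 455 in mutants 1 to 3, against 382, 686 and 745 in controls 1 to 3. Control 1 lay between mutants 2 and 3, and the exact permutation p was 0.2. On the TMM scale the sums were 338, 305 and 326 CPM in mutants 1 to 3, against 466, 932 and 823 CPM in controls 1 to 3. On that scale the groups did not overlap, at the smallest possible exact permutation p of 0.1. The TMM factors were 1.08, 1.21 and 1.40 in mutants 1 to 3 and 0.82, 0.74 and 0.90 in controls 1 to 3. This scaling therefore lowers the sum of every pump class in mutants relative to controls.

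The V0 proteolipid atp6v0ca (chr3:15894880-15905663), which forms the ring that turns as protons pass, had the smallest p of the 3 V-ATPase genes that passed the filter. It had 2, 2 and 26 counts in mutants 1 to 3, against 45, 59 and 58 in controls 1 to 3, with means of 32.7 ± 36.1 CPM in mutants and 183 ± 137 CPM in controls (SD, n = 3). All mutants were below all controls, and control 3 was highest in CPM. The log2 fold change was -2.40 ± 1.21 (SE, n = 3 per group; edgeR adjusted p = 0.438), -1.59 without control 3, and -3.30 against control 3 alone. The end of its span overlaps a gene on the other strand by 455 bases, and the libraries carry no strand information. The V0 subunit atp6v0a1a, one of the a chains that line the proton path, had 26.8, 84.5 and 8.58 CPM in mutants 1 to 3, against 137, 25.5 and 82.3 CPM in controls 1 to 3, and its groups overlapped (-0.92 ± 1.19 SE, edgeR adjusted p = 0.783). The third tested subunit, atp6v0b of the proteolipid ring, had 42.9, 0 and 11.4 CPM in mutants 1 to 3, against 57.4, 25.5 and 76.4 CPM in controls 1 to 3 (-1.48 ± 1.42 SE, edgeR adjusted p = 0.686). The stalk subunit atp6v0d1 had 4, 1 and 6 counts in mutants 1 to 3 and 25, 31 and 2 in controls 1 to 3. The other a chains, atp6v0a1b and atp6v0a2b, had positive fold changes in the fit without a filter, from 1 to 14 counts in a mutant library and 0 to 26 in a control library.

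None of the 8 V1 genes passed the filter. The catalytic A chain atp6v1aa had 4, 0 and 28 counts in mutants 1 to 3 and 1, 113 and 5 in controls 1 to 3, so that control 2 decided its direction (log2 fold change -1.16, and 1.28 without control 2, in the fit without a filter). The second A chain gene atp6v1ab had 0, 0 and 1 counts in mutants 1 to 3 and 0, 42 and 12 in controls 1 to 3. Its pooled ratio of control over mutant was 31.8 (95% exact interval 5.47 to 1278), or 13.3 (1.97 to 568) without control 2, and its span lies within that of another gene on the other strand. The stalk subunit atp6v1d had 0, 0 and 3 counts in mutants 1 to 3 and 5, 65 and 6 in controls 1 to 3, a ratio of 14.9 (4.91 to 73.9), or 4.06 (1.07 to 22.7) without control 2. The peripheral stalk subunit atp6v1e1b had 0, 1 and 0 counts in mutants 1 to 3 and 6, 27 and 7 in controls 1 to 3, a ratio of 23.5 (3.99 to 952.7), or 14.4 (2.16 to 612) without control 2. For atp6v1d and atp6v1e1b every mutant was below every control, at counts near the floor. The subunit atp6v1g1 had 15, 10 and 3 counts in mutants 1 to 3 and 21, 14 and 4 in controls 1 to 3, and the B chain atp6v1ba 7, 1 and 17 counts in mutants and 1, 25 and 5 in controls. Both had positive fold changes below 1 on the log2 scale. The C and H subunits atp6v1c1b and atp6v1h and the accessory gene atp6ap1b had at most 5 counts in a mutant library and at most 51 in a control library. Control 2 held the highest CPM for 7 of the 15 V-ATPase genes and for 5 of the 8 in V1, where it was highest for 19.4% of all rows.

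Of 11 listed ionocyte markers 4 were in the table, namely foxi3a, gcm2, ceacam1 and ca15a. In CPM of library total they summed to 23.2, 426 and 108 in mutants 1 to 3, against 0, 58.96 and 702 in controls 1 to 3, so all 4 were at 0 in control 1. The part of ionocyte RNA in the V-ATPase values was not tested.

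Of the 6 carbonic anhydrase genes, 5 had a negative log2 fold change in the fit without a filter and 1 a positive one, and in each of the 6 genes a single library held over 50% of the CPM summed over libraries. That was so for 57.6% of the 59 genes and 56.8% of all rows. The cytosolic enzyme ca2 (chr24:32735385-32750019) had 37.6, 32.5 and 40.0 CPM in mutants 1 to 3, against 146, 220.2 and 517 CPM in controls 1 to 3. The mutants were all below the controls. Their closeness to each other rests on 7, 5 and 14 counts in mutants 1 to 3. Means were 36.7 ± 3.84 CPM in mutants and 294 ± 197 CPM in controls (SD, n = 3). The log2 fold change was -2.94 ± 1.02 (SE; edgeR adjusted p = 0.221, DESeq2 adjusted p = 0.162), between -3.38 and -2.29 with any 1 library left out. It was -1.96 on the values as deposited. The enzyme ca4c, of the membrane-anchored carbonic anhydrase IV family, had 0 counts in each mutant and 23, 72 and 3 in controls 1 to 3. Mutants were at least 4.51-fold lower, against a floor of 3 counts per mutant library (2.32-fold without control 2, 6.17-fold without control 3). Control 3, with 3 counts, was itself at the floor. The gene ca4c failed the filter, with an edgeR adjusted p of 0.171 in the fit without one and a DESeq2 adjusted p of 0.0969. On the values as deposited, with no lowest value subtracted, its log2 fold change was -1.30.

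Each of the other carbonic anhydrases had over 50% of its CPM in 1 library, though some were counted in several libraries. The membrane-bound enzyme ca15a, known from acid-secreting ionocytes of zebrafish skin, had 2, 0 and 0 counts in mutants 1 to 3 and 0, 0 and 39 in controls 1 to 3. Skin markers were also highest in control 3, with 3611, 1080 and 1256 CPM of library total in mutants 1 to 3 and 2801, 3301 and 39708 CPM in controls 1 to 3 over 23 of 31 listed genes. The part of skin RNA in the carbonic anhydrase values was not tested. The row named ca5a, which the name table calls CA5B and which belongs to the mitochondrial enzymes, had 2, 0 and 0 counts in mutants 1 to 3 and 2, 9 and 14 in controls 1 to 3. The secreted enzyme ca6 had 44, 2 and 11 counts in mutants 1 to 3 and 4, 1 and 13 in controls 1 to 3, and was the 1 gene with a positive value in the fit without a filter, 1.82, or -0.22 without mutant 1. The row ca16b is PTPRG in the name table, a receptor phosphatase with an extracellular domain like a carbonic anhydrase, and had 1, 12 and 13 counts in mutants 1 to 3 and 0, 73 and 0 in controls 1 to 3. Its span overlaps that of tardbp on the same strand by 2948 bases. It passed the filter with a log2 fold change of 0.12 ± 1.77 (SE, edgeR adjusted p = 0.982). The 6 genes together came to 209 ± 101 CPM of library total in mutants and 459 ± 340.4 CPM in controls (SD, n = 3, exact permutation p = 0.2).

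Of the 13 lipid flippases, 6 had a positive and 7 a negative log2 fold change, and 6 passed the filter. The flippase atp8b4 (chr25:31987798-32060084) had 284, 97.5 and 140.1 CPM in mutants 1 to 3, against 13.3, 18.2 and 0 CPM in controls 1 to 3. Every mutant was above every control, with means of 174 ± 98.0 CPM in mutants and 10.5 ± 9.41 CPM in controls (SD, n = 3). The log2 fold change was 4.10 ± 1.37 (SE; edgeR adjusted p = 0.205, DESeq2 adjusted p = 0.0718), between 3.39 and 4.41 with any 1 library left out.

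Other flippases were uneven between libraries. ATP11B, which acts in endosomes, had 118, 52.0 and 132 CPM in mutants 1 to 3, against 6.63, 577 and 82.3 CPM in controls 1 to 3 (log2 fold change -0.92 ± 1.28 SE, edgeR adjusted p = 0.802, and 1.07 without control 2). The row ATP8B3 (2 of 3) had 188, 0 and 34.3 CPM in mutants 1 to 3, against 0, 353 and 23.5 CPM in controls 1 to 3 (-0.55 ± 1.81 SE, edgeR adjusted p = 0.924, and 2.82 without control 2). The copy named atp8b3 had 10.7, 52.0 and 48.6 CPM in mutants 1 to 3, against 86.1, 5.46 and 153 CPM in controls 1 to 3 (-1.07 ± 1.27 SE, edgeR adjusted p = 0.761). For all 3 the groups overlapped. Counts of atp8b5a were 0, 1 and 10 in mutants 1 to 3 and 202, 1 and 1 in controls 1 to 3, and counts of atp11a were 5, 2 and 15 in mutants 1 to 3 and 0, 145 and 0 in controls 1 to 3. Control 1 held 91.2% of the CPM of atp8b5a and control 2 held 76.1% of that of atp11a.

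The flippases atp8a1 and atp8a2 belong to the class that flips phosphatidylserine in mammalian neurons and other cells. Counts of atp8a1 were 45, 1 and 5 in mutants 1 to 3 and 0, 0 and 2 in controls 1 to 3, a pooled ratio of mutant over control of 43.3 (95% exact interval 11.4 to 367.5), or 6.98 (1.25 to 70.8) without mutant 1. Counts of atp8a2 were 29, 2 and 36 in mutants 1 to 3 and 9, 11 and 5 in controls 1 to 3, and its whole span lies within that of rnf6 on the same strand. The bile canaliculus flippase atp8b1 had 10 or fewer counts in each mutant and 0, 94 and 6 in controls 1 to 3. The flippases atp9b, atp10a and atp10d had fold changes between 0.72 and 1.64 on the log2 scale in the fit without a filter, and their groups overlapped. The 13 flippases summed to 1007 ± 394 CPM of library total in mutants and 700.4 ± 391 CPM in controls (SD, n = 3, exact permutation p = 0.4).

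The 3 other pumps failed the filter. The copper exporter atp7a had 3, 10 and 88 counts in mutants 1 to 3 and 12, 18 and 4 in controls 1 to 3. Mutant 3 alone was far above the rest, and the log2 fold change of 2.00 became 0.34 without it. The lysosomal polyamine exporter atp13a2 had 11, 0 and 8 counts in mutants 1 to 3 and 2, 0 and 20 in controls 1 to 3, and its relative ATP13A3 had 2, 2 and 0 in mutants 1 to 3 and 3, 15 and 9 in controls 1 to 3.

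Genes outside these families that work with the pumps were taken from 3 lists. Of 35 partners of the pumps, 12 were in the table and 1 was tested. This was dmxl2, which encodes a regulator of V-ATPase assembly, with 31, 24 and 58 counts in mutants 1 to 3 and 21, 8 and 8 in controls 1 to 3 (log2 fold change 2.26 ± 1.04 SE, edgeR adjusted p = 0.378). The gene dmxl2 passed the filter through the mutants alone. In the fit without a filter 5 of the 12 partners had a positive and 7 a negative log2 fold change. Their median was -2.08, against -0.17 over all rows. Of 41 acid and base transporters, 19 were in the table and 6 tested, of which 0 were higher and 1 lower at an unadjusted p under 0.05, against 8.5% and 4.96% of all tested rows. The lower one was the anion transporter slc26a5, with 6, 2 and 16 counts in mutants 1 to 3 and 79, 133 and 39 in controls 1 to 3 (-2.69 ± 1.03 SE, edgeR adjusted p = 0.270). Of 52 genes for sodium, potassium, chloride and calcium entry and exit, 25 were in the table and 17 tested, of which 2 were higher and 0 lower at an unadjusted p under 0.05, where 8.5% of all tested rows were higher and 4.96% lower. One was the sodium-calcium exchanger slc8a1b, which shares calcium export with the atp2b pumps, with 20, 13 and 37 counts in mutants 1 to 3 and 0, 12 and 3 in controls 1 to 3 (3.04 ± 1.36 SE, edgeR adjusted p = 0.357), and the other was SLC12A1, the sodium-potassium-chloride cotransporter, with 49, 18 and 36 counts in mutants 1 to 3 and 0, 5 and 2 in controls 1 to 3 (4.65 ± 1.47 SE, edgeR adjusted p = 0.181). Both slc8a1b and SLC12A1 passed the filter through the mutants alone, the group in which they were high. The medians of the tested genes were 1.04 for acid and base transporters and 0.34 for the entry and exit genes, against -0.10 over all 3869 tested rows. Over all genes of the lists in the table, without a filter, they were 0.60 (10 higher, 9 lower of 19) and -0.05 (12 higher, 13 lower of 25), against -0.17 over all rows, and no gene of the 3 lists passed the adjusted threshold.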

How the data were processed

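Gene counts of 6 libraries were analysed. Per the labels' protocols, RNA from the laser captures was reverse transcribed with random and oligo(dT) primers and the whole cDNA was amplified before unstranded sequencing, which can lose or inflate low transcripts in single libraries. Per the submitters' processing notes, the tools were TopHat2 2.1.0 and Trimmomatic 0.36.0 with DESeq2, on GRCz10. A counter was not given in the sources used here. Per gene, the authors deposited whole-number counts, and each column has a lowest value of its own (30, 31 and 17 in mutants 1 to 3, and 11, 0 and 32 in controls 1 to 3). That minimum was subtracted first, an inference from the values that no label states, and the values as deposited served as an alternative. The deposited p-values (FDR) of the authors' comparison were only looked up.

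Tests used R 4.3.3 with edgeR 4.0.16 (quasi-likelihood test, robust, TMM scaling, filterByExpr, group as the only term), and limma 3.58.1 (voom) and DESeq2 1.42.0 as alternatives, all fitted on the whole table with Benjamini-Hochberg adjustment at 0.05. The edgeR function was tested on simulated data. SEs are the size of the log2 fold change over the root of F. Gene levels are CPM with TMM scaling over all rows, and sums are CPM of library total without it. Sums were compared by two-sided exact permutation. Pooled ratios carry 95% exact binomial intervals, and their values without the library of most counts were added after seeing the data. Of the 59 IDs, 58 were in the name table. The genes given in every library are, per class, the 4 of highest mean CPM and the smallest p in each direction, all genes at an unadjusted p under 0.05 and those with 0 counts in 1 group and at least 3 in each library of the other (28 genes); further genes were described after their values were seen. The gene families and lists were chosen with earlier results of these data known. One gene of the 59 enters the counts and sums but is not reported here by itself.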

Additional observations from a re-analysis of the deposited data

How the results depend on the processing

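The median log2 fold change of all tested rows was -0.10 with the settings of the report, 0.19 with upper-quartile scaling, 0.36 with limma-voom, 0.30 with the replicate block, 1.16 within the project of control 3 and 0.51 with the project as a term. A sign under one of these settings is therefore to be read against that median. DESeq2 called 2 of the 59 genes and 349 rows in all, and the sequencing project as a second term gave 0 of the 59 and 9 rows in all. At an unadjusted p under 0.05, 2 of the 26 tested genes were higher in mutants with the settings of the report, as were 329 of 3869 rows. With upper-quartile scaling 4 of 26 were higher (363 of 3869 rows), with DESeq2 4 of 59 (1307 of 10022) and without a filter 4 of 59 (1381 of 10022). With the project as a term 4 of 26 were higher (300 of 3869), and on the values as deposited 1 of 59 (141 of 10022). With 1 library left out the range was from 2 of 29 (311 of 4288), without mutant 3, to 6 of 41 (1172 of 6344), without control 3. In the report 1 of 26 was lower (192 of 3869 rows). With DESeq2 it was 4 of 59 (382 of 10022), with limma-voom 0 of 26 (155 of 3869) and without a filter 6 of 59 (563 of 10022). On the values as deposited it was 5 of 59 (569 of 10022), with the project as a term 2 of 26 (179 of 3869) and with a replicate block 2 of 26 (121 of 3869). With 1 library left out the range was from 1 of 29 (191 of 4288), without mutant 3, to 4 of 41 (389 of 6344), without control 3. The replicate numbers are not stated to pair the libraries. Same-numbered mutants and controls had deviations correlated at 0.08, -0.06 and 0.03, against -0.12 to 0.11 for differently numbered ones. Such values cannot show whether the libraries are paired. With the replicate block 0 of the 26 tested genes passed, and 2 were higher at an unadjusted p under 0.05 (274 of 3869 rows). The differences between summed levels kept their values by construction.

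Several summed levels (log2, mutant over control) turned. The Ca-ATPase sum (0.05) was -0.53 with TMM scaling, -0.63 with upper-quartile scaling and -0.069 on the values as deposited, and -0.47 to 0.56 with 1 library left out. The Na,K-ATPase sum (-0.18) was 1.68 within the project of control 3 and 0.34 as a mean of log2(CPM + 1) over members, and -1.12 to 0.34 with 1 library left out. On the values as deposited the V-ATPase sum (-0.55) was 0.41 and the carbonic anhydrase sum (-0.95) was 0.11. The flippase sum (0.58) was -0.000243 with TMM and -0.10 with upper-quartile scaling, and the sum of the other pumps (1.27) was -0.23 within the project of control 3.

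Counts of genes lower in mutants, chosen as alternatives after seeing the data, were the same within the project of control 3 and with the project as a term: 25 of 59 overall (39 in the report), 5 of 12 Na,K-ATPase chains (9), 7 of 15 V-ATPase genes (11) and 3 of 13 flippases (7). The other project held no mutant, so both settings compare the mutants with control 3 alone. Their agreement follows from the design and is no second piece of evidence. Over all rows the share lower also differed, at 36.1% within the project and 35.7% with the project as a term, against 52.7% in the report. Without control 3 they were 3 of 10 Ca-ATPases and 1 of 3 other pumps.

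Single genes turned sign as follows (log2 fold change). Within the project of control 3 and with the project as a term, in that order, ATP11B was 0.30 and 0.21, ATP8B3 (2 of 3) 1.62 and 1.53, atp1a1a.1 0.49 and 0.41, atp1a1a.4 2.77 and 2.68, atp1a3a -0.75 and -0.80, atp1b1a 4.39 and 4.32, atp2a1 1.99 and 1.91, atp6v1aa 0.25 and 0.30, and atp8b5a 1.02 and 1.12. Within the project, ATP11B, atp1a1a.1, atp6v1aa and atp8b5a lay below the median of all tested rows of 1.16, though above 0. These 2 settings both rest on control 3 as the only control compared. With limma-voom ATP11B was 0.57, ATP8B3 (2 of 3) 0.18, atp13a2 1.34, atp2a1 0.80 and atp8b3 0.38. With the replicate block ATP11B was 0.50, ATP8B3 (2 of 3) 0.45, atp13a2 0.29 and atp2a1 1.301. On the values as deposited atp13a2 was 0.48, atp6v1g1 -0.0038 and ca16b -0.54, and ca16b was -0.22 without a filter. With upper-quartile scaling atp2a2b was 0.032. With 1 library left out ATP11B ran from -1.70 to 1.07, ATP8B3 (2 of 3) from -2.63 to 2.82, atp13a2 from -1.49 to 3.51, atp2a1 from -1.52 to 2.37, atp2a2b from -1.78 to 0.0094, atp2b1a from -1.35 to 0.75, atp6v1aa from -2.92 to 1.28, atp6v1g1 from -0.077 to 1.02, atp8b5a from -5.74 to 1.85, ca15a from -7.51 to 3.27, ca16b from -0.92 to 6.40 and ca6 from -0.22 to 4.07. Apart from what each setting leaves out by construction, the cause was not tested. Among the genes named for an unadjusted p under 0.05 or a group at 0, atp2a2a, atp1b2b, atp8b4, ca2 and ca4c kept their sign under every setting run. For atp2a2a, atp1b2b and ca4c, each with a group at 0, rescaling or leaving out a library could not turn the sign. Their bounds rest on the subtraction of each column's lowest value. These genes were also picked from the same values.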

Other observations

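The sodium pump chain atp1a1a.4 was set against tubule genes within each library, a comparison chosen after the values were seen. Per count of cdh17 it had 2.99, 3.56 and 5.62 counts in mutants 1 to 3, against 1.77, 2.09 and 2.68 in controls 1 to 3, higher in 3 of 3 mutants than in any control. Per count of slc12a3 it had 5.78, 9.89 and 6.74 in mutants 1 to 3, against 3.12, 2.86 and 4.54 in controls 1 to 3, again with no overlap. Per count of hnf1ba, a transcription factor of the tubule, or of pax2a the groups overlapped. The two-sided exact permutation p was 0.1 for cdh17 and for slc12a3, the smallest possible, and 0.4 after Benjamini-Hochberg adjustment over the 8 ratios computed, so neither passed. The log2 fold changes of cdh17 and slc12a3 were themselves -1.35 and -1.56, against a median of -0.10 over all tested rows. A gene at that median also rises relative to them, and the share of all rows that do so was not computed. These ratios therefore do not set atp1a1a.4 apart from other genes. For atp1b1a the groups overlapped against each of the 4 genes. All 4 had negative log2 fold changes, with hnf1ba at -1.72 and pax2a at -0.39. In the fit without a filter 6 of the 15 listed tubule genes were higher in mutants and 9 lower. The higher ones include jag2b (3.72) and tfap2b (2.95), and no ratio to a gene higher in mutants was computed. The counts of genes differ in gene length, so a ratio is compared between libraries only.

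The balance of the beta chain atp1b1a and the alpha chain atp1a1a.4 also differed between libraries. The share of atp1b1a in the counts of both was 31.8% (95% exact binomial interval 29.2% to 34.4%), 54.6% (47.3% to 61.7%) and 31.7% (28.6% to 34.8%) in mutants 1 to 3, against 48.1% (46.7% to 49.6%), 43.7% (42.4% to 45.0%) and 14.5% (7.18% to 25.0%) in controls 1 to 3. The groups overlapped, with an exact permutation p of 0.8, and control 3 had the lowest share.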
